A study of Mus musculus with 2 samples.

Results

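Dbp, Tef, Hlf and Nfil3 encode transcription factors of the basic leucine zipper (bZip) family, the first 3 of them outputs of the circadian clock. They were taken by symbol from the gene table shared by both libraries and are 4 of its 32285 genes. Single-cell RNA-seq had been made from the tongue epithelium of male B57BL/6 mice, the strain name as the labels spell it, aged 8 to 12 weeks. Mice were collected at Zeitgeber time 0 (ZT0, lights on by the usual convention) or 12 (ZT12, lights off), and the labels name no other genotype or treatment in either group. The epithelium was digested with TrypLE, a trypsin-like enzyme, and cells that excluded the dye 7-AAD were sorted as living and loaded for 10x Genomics 3' libraries. There was 1 library per time, with the number of mice behind each not given in the sources used here. No spread between animals can therefore be stated, no test was made, and each difference below lies between 2 libraries with intervals that cover counting error only.

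The clock of a cell rests on a pair of activators, BMAL1 (the product of Arntl) and CLOCK or its relative NPAS2, which bind DNA at E-boxes and drive their own repressors as well as output genes. Dbp, Tef and Hlf are such outputs, and their proteins are called PAR bZip factors after a domain rich in proline and acidic residues. They activate genes through a site named the D-box. Nfil3, also known as E4BP4, is a bZip repressor without that domain which competes for the same site, and in liver its messenger is known to cycle opposite to that of Dbp. D-boxes are also found in the promoters of clock genes themselves, among them Per1 and Per3.

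All 4 genes have an entry among the promoters of RefSeq (GRCm38.p6), Tef with 2 start sites. Windows from 250 bases before to 50 after the start were searched on both strands for the E-box CACGTG, the related CACGTT, the D-box (TTATGCAA, TTATGTAA, TTACGTAA or TTACGCAA), AAGGTCA, and the cAMP response element TGACGTCA. Among all 32851 promoter windows of that length, 7.15% held CACGTG, 4.68% CACGTT, 1.94% a D-box, 4.72% AAGGTCA and 1.79% TGACGTCA. None of these motifs contains another. Both Tef starts held 1 E-box and the Hlf window held 1 cAMP response element next to the start, while the windows of Dbp and Nfil3 held none of these letters. The E-boxes are shown because the clock activators bind such sites, the D-boxes of Per1 and Per3 because the members' proteins bind such sites, and the Hlf element, a site of CREB-type factors, because it was the one match in that window. Capitals mark the match, each sequence runs 5′ to 3′ along the gene's strand, and the match is a description of the letters, not evidence of binding.
Tef, first start, E-box, chr15:81802520-81802577, plus strand: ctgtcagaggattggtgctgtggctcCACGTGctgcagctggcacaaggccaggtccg
Tef, second start, E-box, chr15:81811250-81811307, plus strand: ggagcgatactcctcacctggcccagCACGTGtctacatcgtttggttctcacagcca
Hlf, cAMP response element, chr11:90390918-90390952, minus strand: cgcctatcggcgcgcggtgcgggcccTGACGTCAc
Per1, D-box, chr11:69098899-69098948, plus strand: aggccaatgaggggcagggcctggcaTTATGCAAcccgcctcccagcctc
Per3, D-boxes 47 bases apart from start to start, chr4:151044800-151044886, minus strand: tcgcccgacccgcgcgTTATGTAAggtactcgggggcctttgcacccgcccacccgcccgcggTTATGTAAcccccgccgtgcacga

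The ZT0 library held 1594 cells and 49283369 UMIs after filtering (unique molecular identifiers, 1 per captured transcript) and the ZT12 library 2621 cells and 67107700 UMIs, with medians of 28383 and 23090 UMIs per cell. Only 2 barcodes occurred in both libraries. The cells formed 21 clusters, and 4 keratinocyte classes were compared. Basal-like cells (471 at ZT0, 759 at ZT12) carried Krt5 at 4974 and 5788 CPM (UMIs scaled to the summed total of the class in the usual way), differentiated-like cells (513 and 905) Krt13 at 35023 and 40992 CPM, filiform-like cells (108 and 168), of the spine-like papillae, the hair-type keratin Krt36 at 6664 and 7642 CPM, and cycling-like cells (200 and 91) Mki67 at 734 and 416 CPM. The labelled epithelium thus carried its defining keratins. Markers of other kinds were lower. Over all cells the 7 Langerhans or myeloid markers summed to 254 and 61.1 CPM at ZT0 and ZT12, most of it Cd74, H2-Ab1 and H2-Eb1, and the 7 simple epithelial or gland markers to 102 and 102 CPM. The 7 lymphocyte markers summed to 9.33 and 3.92 CPM, and the fibroblast sum of 812 and 422 CPM was nearly all Dcn, with Col1a2, Col3a1 and Lum at 0. Their part in the results was not tested.

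Some clusters came almost wholly from 1 library, and they sit inside the classes. Among basal-like cells, 218 of the 471 at ZT0 were in a cluster led by S100a9 and S100a8, which had 5 cells at ZT12, and 325 of the 759 at ZT12 were in a cluster led by Glul and Igfbp4, which had 5 cells at ZT0. Among differentiated-like cells, a cluster led by Chil4, with interferon-response genes such as Isg15, had 159 cells at ZT0 and 1 at ZT12, and one led by Hsd17b2 had 7 and 109. A cluster led by Dlk1 (94 and 451 cells) carried both Krt5 and Krt13, at 2954 and 28049 CPM, and was left between the basal-like and differentiated-like classes. Within-class ratios, the class orders of the 4 genes and their shares of cells are therefore given also without the clusters that came over 90% from 1 library, which leaves 248 and 429 basal-like and 347 and 795 differentiated-like cells.

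The 3 PAR bZip genes stood higher at ZT12 and the repressor Nfil3 stood higher at ZT0. Over all cells, Dbp, Tef and Hlf passed a size rule of a 2-fold difference with a 95% interval that excludes 1 and a mean of at least 5 CPM, which 0.346% of the genes measured at that level met in the direction of ZT12. The same 3 genes passed it in every one of the 4 classes, where 0.762% of genes met it in basal-like, 0.35% in differentiated-like, 0.81% in filiform-like and 2.65% in cycling-like cells. Nfil3 lay below the level minimum. Without the minimum it passed in the direction of ZT0 over all cells, as did 6.26% of genes, and in basal-like, differentiated-like and cycling-like cells (2.42%, 2.5% and 3.39% of genes), but not in filiform-like cells (1.85%). The plot of levels by class shows the 4 genes side by side.

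**Figure D1:**
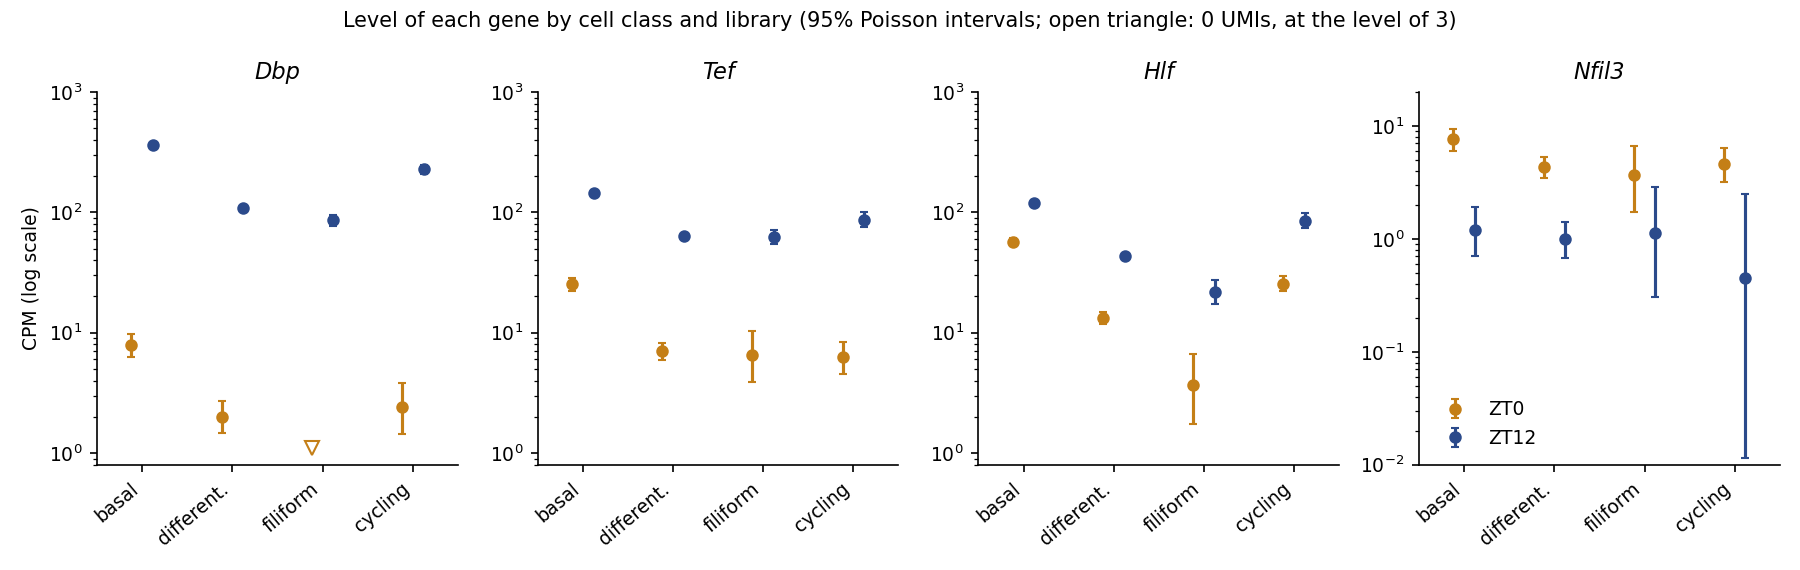
Summed level of each gene (CPM, log axis) in basal-like, differentiated-like, filiform-like and cycling-like cells of the ZT0 and ZT12 libraries. Points are single libraries and bars are exact 95% Poisson intervals. Dbp, Tef and Hlf lie higher at ZT12 in each class and Nfil3 lies higher at ZT0, with overlapping intervals for Nfil3 in filiform-like cells. The open triangle marks 0 Dbp UMIs at the level of 3 counts, 1.09 CPM.

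Dbp (ENSMUSG00000059824, chromosome 7, 45705088 to 45710203, plus strand, mm10), the most strongly cycling of the PAR bZip genes in many tissues, stood at 3.53 CPM at ZT0 (174 UMIs) and 194 CPM at ZT12 (12986 UMIs). Its ratio of 54.8 ranked 1 among the 9541 genes measured. In basal-like cells it went from 7.88 to 361 CPM, a ratio of 45.8 (36.9 to 57.5), and in differentiated-like cells from 2.01 to 109 CPM, a ratio of 54.2 (40.1 to 75.0). Cycling-like cells had 2.43 and 227 CPM, a ratio of 93.5 (58.5 to 159). No Dbp UMI was counted in the 108 filiform-like cells at ZT0, against 85.7 CPM (305 UMIs) at ZT12, which is 63.4-fold higher or more by the exact conditional 95% limit, and 78.4-fold with 3 counts put in place of the 0. Every class of the ZT12 library was thus well above every class of the ZT0 library.

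Within the ZT12 library the Dbp levels of the classes were ordered basal-like, cycling-like, differentiated-like, filiform-like. Each neighbour in that order differed beyond counting error: basal-like over cycling-like 1.59-fold (1.45 to 1.74), cycling-like over differentiated-like 2.09-fold (1.90 to 2.30) and differentiated-like over filiform-like 1.27-fold (1.13 to 1.43). The first of these steps rested on the Glul-led cluster of ZT12: without the clusters of 1 library, basal-like cells had 231 CPM and could not be told apart from cycling-like cells (1.02-fold, 0.919 to 1.12), while the other steps were 2.20-fold (2.00 to 2.42) and 1.20-fold (1.07 to 1.36). At ZT0 basal-like cells were again highest, 3.92-fold over differentiated-like cells (2.68 to 5.80), and 3.02-fold without those clusters (1.75 to 5.24). Cycling-like and differentiated-like cells could not be told apart there (1.21-fold, 0.658 to 2.14). The 3' end of Dbp overlaps Sphk2, a sphingosine kinase gene on the opposite strand, by 737 bases, with the use of strand in counting not given in the sources used here. Sphk2 stood at 32.1 and 28.1 CPM at ZT0 and ZT12.

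Tef (ENSMUSG00000022389, chromosome 15, 81802421 to 81826863, plus strand, mm10), named for thyrotroph embryonic factor, stood at 11.5 CPM at ZT0 (568 UMIs) and 90.7 CPM at ZT12 (6086 UMIs), a ratio of 7.87 (7.22 to 8.59) that ranked 4 among 9541 genes. Basal-like cells had 25.3 and 146 CPM, a ratio of 5.75 (5.07 to 6.56). Differentiated-like cells had 7.01 and 63.1 CPM (9.0, 7.62 to 10.7), filiform-like cells 6.56 and 62.4 CPM (9.52, 5.88 to 16.4) and cycling-like cells 6.22 and 87.1 CPM (14.0, 10.1 to 19.8). The class highest at both times, basal-like, therefore had the smallest ratio, and its interval lay below those of differentiated-like and cycling-like cells. The difference between classes in the ratio was not tested.

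At ZT0 Tef was 3.61-fold higher in basal-like than in differentiated-like cells (2.95 to 4.44), and the other 3 classes could not be told apart. At ZT12 basal-like cells stood 1.67-fold over cycling-like cells (1.44 to 1.95) and these 1.38-fold over differentiated-like cells (1.19 to 1.60). Differentiated-like and filiform-like cells were within counting error of each other (1.0-fold, 0.880 to 1.17). Without the clusters of 1 library basal-like cells stayed highest, 1.31-fold over cycling-like cells at ZT12 (1.12 to 1.54) and 3.73-fold over differentiated-like cells at ZT0 (2.88 to 4.83). An antisense gene, Gm17597, overlaps Tef by 193 bases and had 1 UMI at ZT0 and 16 at ZT12.

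Hlf (ENSMUSG00000003949, chromosome 11, 90336536 to 90390895, minus strand, mm10), hepatic leukemia factor, known also as a marker of blood stem cells, stood at 28.1 CPM at ZT0 (1384 UMIs) and 70.2 CPM at ZT12 (4711 UMIs), a ratio of 2.50 (2.35 to 2.66) that ranked 18 among 9541 genes. Basal-like cells had 56.6 and 120 CPM, a ratio of 2.13 (1.94 to 2.34). Differentiated-like cells had 13.3 and 43.1 CPM (3.23, 2.84 to 3.69) and cycling-like cells 25.6 and 85.3 CPM (3.34, 2.71 to 4.11). Filiform-like cells had the lowest level at both times, 3.64 and 21.9 CPM, and a ratio of 6.02 (3.10 to 13.0).

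With all clusters the classes had 1 order for Hlf in both libraries, basal-like, cycling-like, differentiated-like, filiform-like. At ZT12 basal-like cells stood 1.41-fold over cycling-like (1.21 to 1.65), these 1.98-fold over differentiated-like (1.69 to 2.31) and these 1.96-fold over filiform-like cells (1.56 to 2.50). At ZT0 the same steps were 2.21-fold (1.88 to 2.62), 1.92-fold (1.59 to 2.31) and 3.66-fold (1.96 to 7.71). The top place of basal-like cells came from 1 cluster at each time. Without the clusters of 1 library, basal-like cells lay below cycling-like cells, with 49.5 against 85.3 CPM at ZT12, where cycling-like cells were 1.72-fold higher (1.44 to 2.05), and 17.5 against 25.6 CPM at ZT0 (1.46-fold, 1.14 to 1.88). They still stood over differentiated-like cells, 1.21-fold at ZT12 (1.07 to 1.36) and 1.68-fold at ZT0 (1.30 to 2.18). The ZT12 level of cycling-like cells depended on the makeup of that class: its mitotic cluster alone, given below, lay close to these basal-like cells. At ZT12 Hlf stood at 215 CPM in the Glul-led cluster, but at 45.2 CPM in the Pappa-led and 54.2 CPM in the Sostdc1-led basal-like clusters that both libraries share. At ZT0 it stood at 102 CPM in the S100a9-led cluster and at 10.6 and 28.1 CPM in the shared ones.

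Nfil3 (ENSMUSG00000056749, chromosome 13, 52967209 to 52981073, minus strand, mm10), the repressor, was sparse: 282 UMIs or 5.72 CPM at ZT0 and 85 UMIs or 1.27 CPM at ZT12. It was 4.52-fold higher at ZT0 (3.53 to 5.83). Basal-like cells had 7.60 and 1.21 CPM at ZT0 and ZT12, 6.28-fold higher at ZT0 (3.69 to 11.3), and differentiated-like cells 4.30 and 0.998 CPM, 4.31-fold (2.85 to 6.66). Cycling-like cells had 34 UMIs at ZT0 and 1 at ZT12, 10.2-fold with an interval of 1.71 to 414. In filiform-like cells the counts of 10 and 4 UMIs gave an interval that holds 1 (3.24-fold, 0.935 to 14.2), so no difference was detectable at this depth. At ZT0 basal-like cells stood 1.77-fold over differentiated-like cells (1.29 to 2.41), but 64 of their 81 Nfil3 UMIs lay in the S100a9-led cluster. Without the clusters of 1 library the direction turned, with 2.60 CPM (15 UMIs) in basal-like and 3.67 CPM in differentiated-like cells, a ratio of 0.708 (0.371 to 1.27), and no pair of classes could be told apart at either time. At ZT12 none could be with all clusters.

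Counted per cell, the same pattern held in the share of cells with a UMI. To compare cells of unequal depth, each was thinned to 12.5 kUMI (kilo-UMIs), which left out 132 ZT0 and 261 ZT12 cells. Dbp was then detected in 4.45% of cells at ZT0 (3.45 to 5.63) and 79.6% at ZT12 (77.9 to 81.2), Tef in 14.5% and 65.3%, Hlf in 21.4% and 46.7%, and Nfil3 in 6.50% (5.29 to 7.89) and 1.31% (0.894 to 1.86). Unthinned, the shares were 8.66% and 88.2% for Dbp, 25.7% and 81.8% for Tef, 33.5% and 60.3% for Hlf, and 14.2% and 2.79% for Nfil3. No cell type of these libraries is known to lack these genes, so a background share from free RNA could not be read for them. As a scale for free RNA, the keratin Krt13 stood at 183 and 296 CPM in the few Langerhans-like cells.

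**Figure D2:**
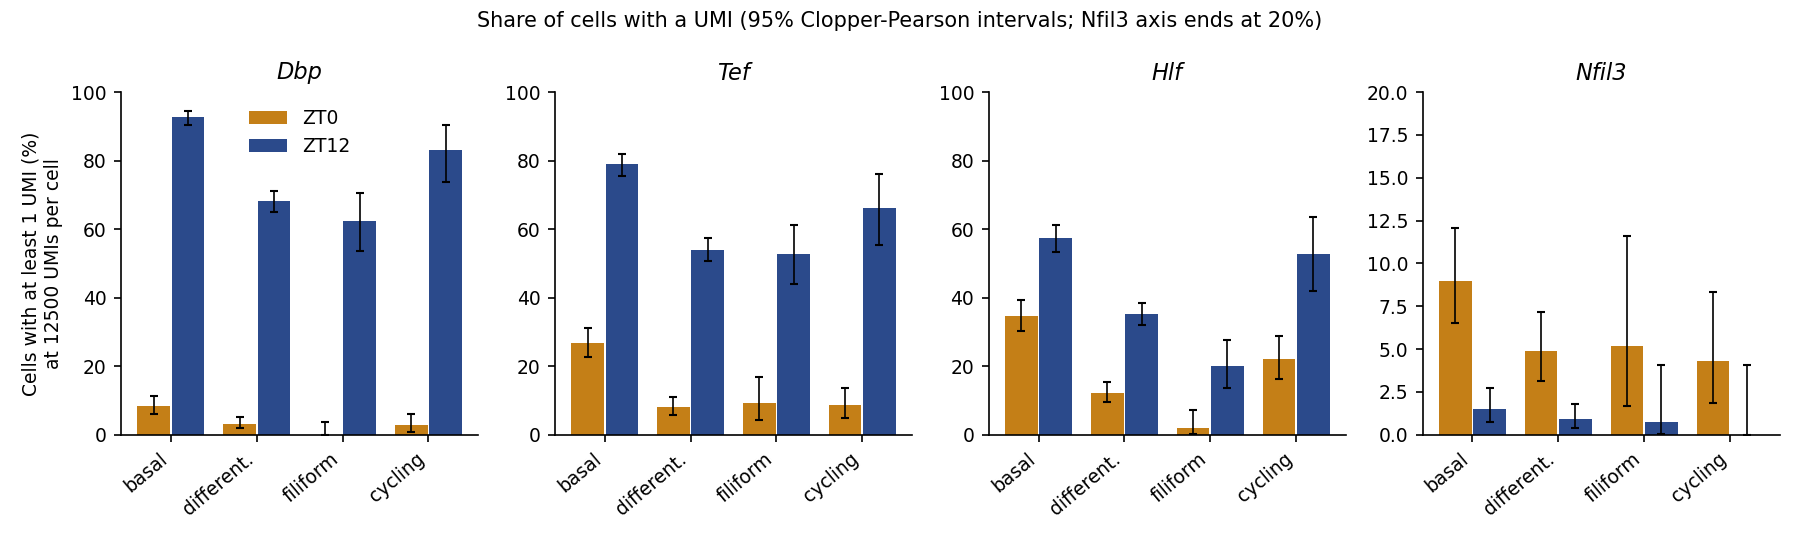
Share of cells (percent) with at least 1 UMI of each gene, each cell thinned to 12.5 kUMI, by class and library. Bars start at 0, error bars are exact 95% Clopper-Pearson intervals, and the Nfil3 axis ends at 20%. Dbp reaches 92.6% of basal-like cells at ZT12 against 8.31% at ZT0, and the Nfil3 bars are taller at ZT0.

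In the thinned basal-like cells of ZT12, Dbp was found in 92.6%, Tef in 78.9% and Hlf in 57.3%. In differentiated-like cells the shares were 68.1%, 53.9% and 35.2%, and in filiform-like cells 62.2%, 52.6% and 20%. Cycling-like cells lay between, at 83.1%, 66.3% and 52.8%. Without the clusters of 1 library the basal-like shares were 87.3%, 72.4% and 35.3% (30.5 to 40.3), so that Hlf was then found less often than in cycling-like cells (41.9 to 63.5) and about as often as in the remaining differentiated-like cells, at 33.8%. At ZT0 Dbp was found in 8.31% of basal-like, 3.25% of differentiated-like and 2.69% of cycling-like cells, and in 0 of 97 filiform-like cells, which allows a share with a UMI of up to 3.09% by 3 counts of the total and 3.73% by Clopper-Pearson. Tef was found at ZT0 in 26.7% of basal-like and 8.11% to 9.28% of the other classes, and Hlf in 34.6% of basal-like, 22.0% of cycling-like, 12.2% of differentiated-like and 2.06% of filiform-like cells. The ZT0 basal-like shares without the clusters of 1 library were 4.98% for Dbp, 26.6% for Tef and 14.1% for Hlf. For Nfil3 the basal-like share was 8.99% at ZT0 and 1.49% at ZT12, and the differentiated-like share 4.87% and 0.924%. Without those clusters the basal-like shares were 2.07% (0.677 to 4.77) and 1.06% (0.290 to 2.69), with overlapping intervals. The differentiated-like shares were then 4.49% and 0.920%.

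Cells that held all 3 PAR bZip messengers were common in 1 library. At ZT12, 47.5% of the thinned basal-like cells had a UMI of Dbp, Tef and Hlf, and 2.08% had none of the 3. At ZT0 the shares were 1.12% and 47.6%. All 3 were found at ZT12 in 28.1% of cycling-like, 16.5% of differentiated-like and 9.63% of filiform-like cells. The basal-like share with all 3, leaving out the clusters of 1 library, was 25.5% at ZT12 and 0.830% at ZT0. With all clusters, they were found together at ZT0 in 5 basal-like cells, 1 differentiated-like cell and no filiform-like or cycling-like cell.

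**Figure D3:**
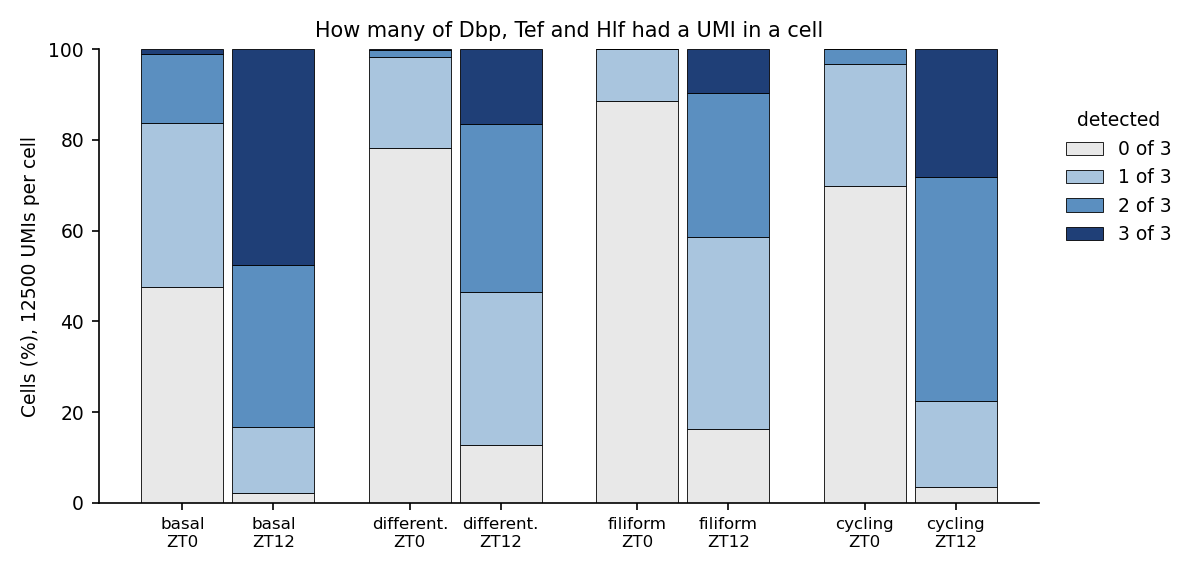
Share of cells (percent, stacked) in which 0, 1, 2 or 3 of Dbp, Tef and Hlf had a UMI, each cell thinned to 12.5 kUMI, by class and library. Cells with all 3 make up 47.5% of basal-like cells at ZT12 and 1.12% at ZT0.

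Within 1 class and 1 library, cells with one of the PAR bZip genes held another more often in some classes and not in others, as a description of cells that share library and depth. At ZT12 the share was higher in the positive cells in 10 of 12 pairs of genes and classes, with intervals apart in 4. At ZT0 it was higher in 6 of 10, with intervals apart in 1. Without the clusters of 1 library, these were again 10 of 12 and 6 of 10, with intervals apart in 1 and 0. In ZT12 basal-like cells, Hlf was found in 62.3% of the Tef-positive (58.0 to 66.4) and 38.7% of the Tef-negative cells (30.7 to 47.3), and without those clusters in 38.8% (33.0 to 44.9) and 26% (17.9 to 35.5). In ZT12 differentiated-like cells, Hlf was found in 39.8% of the Dbp-positive (35.9 to 43.9) and 25.4% of the Dbp-negative cells (20.3 to 30.9), and without those clusters in 38.4% (34.2 to 42.8) and 24.6% (19.5 to 30.4). In ZT12 cycling-like cells the shares did not follow this, with Hlf in 51.4% of the 74 Dbp-positive (39.4 to 63.1) and 60% of the 15 Dbp-negative cells (32.3 to 83.7). At ZT0 Nfil3 was found in 18.2% of the Hlf-positive basal-like cells (28 of 154, 12.4 to 25.2) and in 4.12% of the Hlf-negative (2.15 to 7.09). With those clusters left out these were 2 of 34 and 3 of 207 cells, with overlapping intervals. The S100a9-led cluster, which held most of the Hlf UMIs of that class, also had the highest Nfil3 level among the clusters of that class with at least 20 cells, 13.4 CPM against 1.72 CPM in the Pappa-led and 3.95 CPM in the Sostdc1-led cluster. In ZT0 differentiated-like cells Nfil3 was found in 1 of 60 Hlf-positive cells and 5.31% of the Hlf-negative.

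Cluster by cluster, the direction held for Dbp and Tef throughout. Of the 14 clusters with at least 20 cells in each library, the interval of the ratio lay above 1 in 14 for Dbp and in 14 for Tef. The Dbp ratios, where ZT0 had a count, ran from 28.7 in the Krt42-led cluster between basal-like and differentiated-like cells to 86.9 in the Crct1-led cluster, which carries genes of the cornified envelope. The Tef ratios, again where ZT0 had a count, ran from 4.23 in the Pappa-led basal-like cluster to 26.1 in the Crct1-led cluster. The Crct1-led cluster had only 20 cells at ZT0, so both of these largest ratios rest on few ZT0 UMIs. For Hlf the interval lay above 1 in 13 clusters and held 1 in an unnamed cluster of shallow barcodes with a median of 1946 UMIs. The smallest Hlf ratio was 1.31 (1.14 to 1.51), in the Dlk1-led cluster, where Hlf went from 85.3 to 111 CPM. For Nfil3 the interval lay below 1 in 6 clusters and held 1 in 7, and 1 cluster, the Krt10-led filiform-like one, had no Nfil3 UMI in either library.

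**Figure D4:**
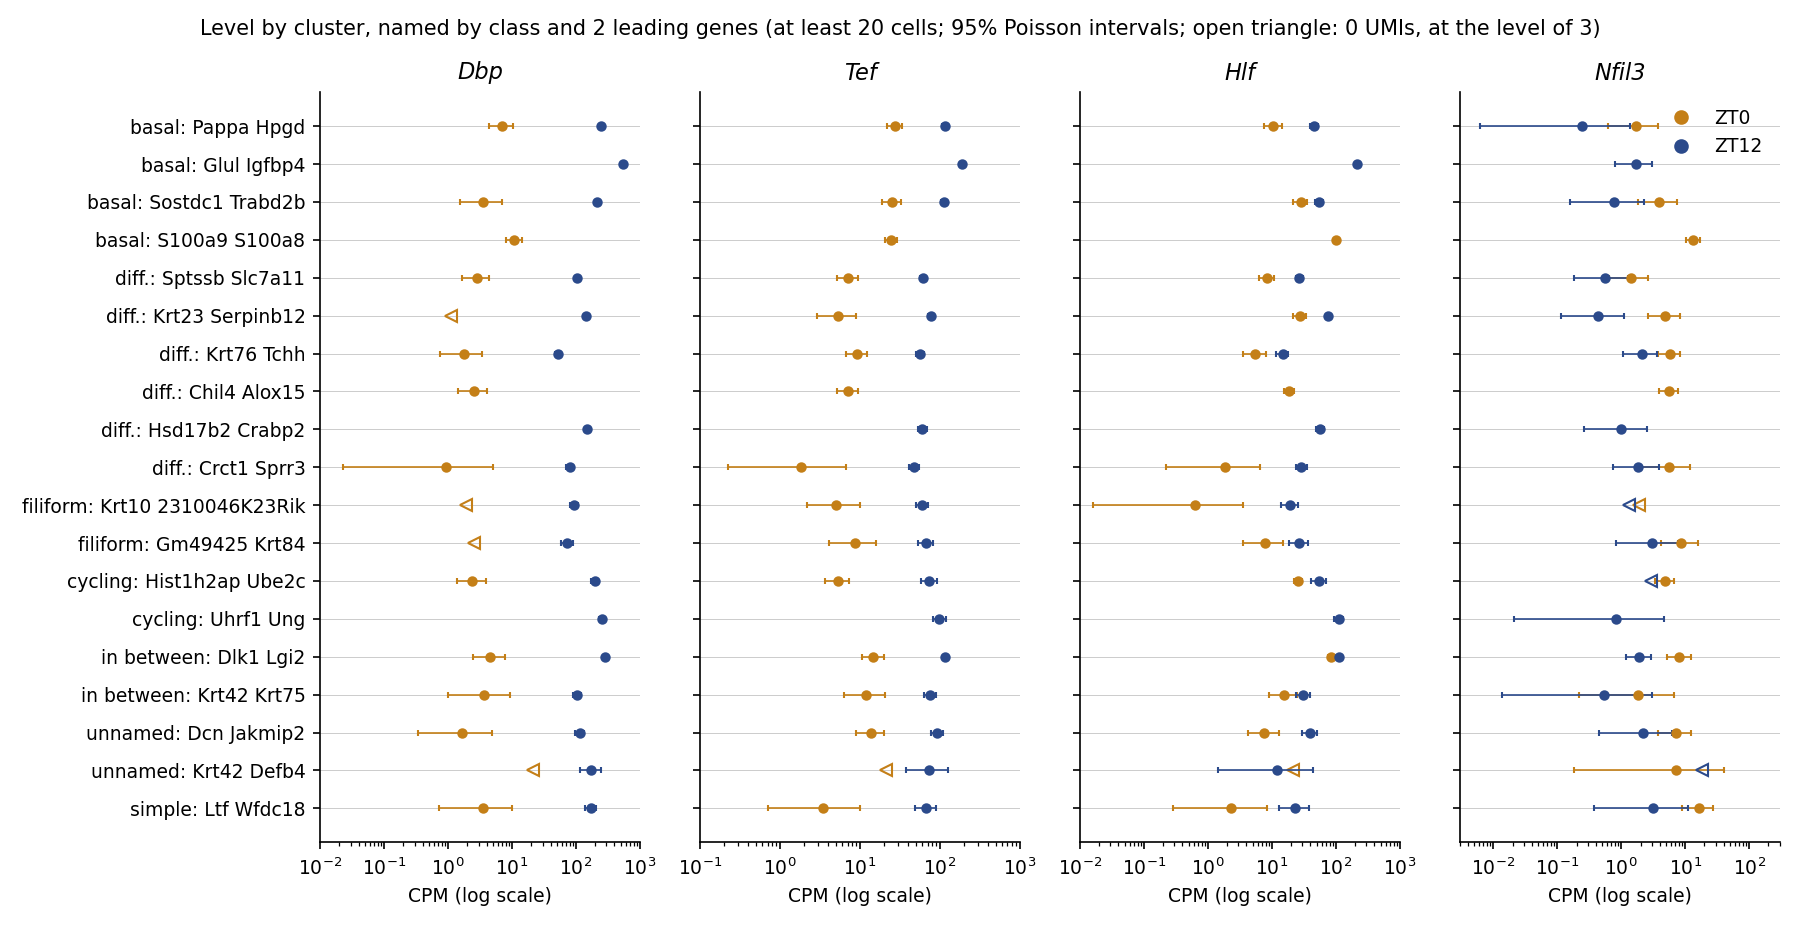
Level of each gene (CPM, log axis) in each cluster with at least 20 cells in a library, for ZT0 and ZT12, clusters named by class and their 2 leading genes. Bars are exact 95% Poisson intervals and open triangles mark 0 UMIs at the level of 3. Dbp and Tef lie higher at ZT12 in each cluster measured at both times, and the Hlf points of the Dlk1-led cluster lie close together, at 85.3 and 111 CPM.

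The highest Dbp level of any cluster with 20 cells was 535 CPM, in the Glul-led basal-like cluster of ZT12, which also had the highest Tef (188 CPM) and Hlf (215 CPM) levels at that time. In the basal-like clusters that both libraries share, Dbp went from 6.86 to 250 CPM (36.4-fold, Pappa-led) and from 3.51 to 211 CPM (60.0-fold, Sostdc1-led). The lowest Dbp level at ZT12 was 53.1 CPM, in the Krt76-led cluster, led by a suprabasal keratin of the oral epithelium. That cluster had also the lowest Hlf level at ZT12 among clusters of full depth, 14.7 CPM. A cluster with simple epithelial keratins (Krt8, Krt18) and lactotransferrin, 35 cells in each library, followed the same direction, with Dbp at 3.48 and 169 CPM and Nfil3 at 16.2 and 3.10 CPM.

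Leaving out the clusters that came over 90% from 1 library, the basal-like log2 ratios moved from 5.52 to 5.38 for Dbp, from 2.52 to 2.12 for Tef, from 1.09 to 1.5 for Hlf and from -2.65 to -2.38 for Nfil3. In differentiated-like cells they moved from 5.76 to 5.81, from 3.17 to 3.17, from 1.69 to 1.98 and from -2.11 to -1.87. Every direction stayed. Among cycling-like cells the libraries differed in makeup, with 189 of 200 cells at ZT0 in a mitotic cluster and 49 of 91 at ZT12 in a cluster led by the DNA replication genes Uhrf1 and Mcm3. Within the mitotic cluster alone Dbp went from 2.41 to 195 CPM (80.8-fold), Tef from 5.26 to 73.6 CPM (14.0-fold) and Hlf from 25.6 to 54.9 CPM (2.15-fold, 1.56 to 2.91), with 34 Nfil3 UMIs at ZT0 and 0 at ZT12. At ZT12 its Hlf level was close to the 49.5 CPM (44.8 to 54.7) of basal-like cells without the clusters of 1 library. All cycling-like cells of ZT12 had Hlf at 85.3 CPM.

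Across the 8 sums of 4 classes and 2 times, the genes whose log2 levels ran most like those of Dbp were the period gene Per3 (Pearson r 0.96), Rabl6 (0.95) and the clock repressor Nr1d2 (0.95). For Tef they were Nr1d2 (0.97), Per3 (0.97) and the repressor Cry2 (0.97). For Hlf they were Btbd1 (0.97), Ptp4a3 (0.96) and Fance (0.96), none of which is a core clock gene. For Nfil3 they were Irf9 (0.99), a mediator of the interferon response, Ndufa1 (0.98) and the MHC gene H2-T23 (0.97). In basal-like cells Irf9 went from 55.2 to 12.2 CPM. Pearson r does not weigh the size of a change. In the same cells Rabl6 went from 69.5 to 91.0 CPM, Btbd1 from 53.5 to 63.5 CPM and Fance from 28.0 to 30.9 CPM. These r describe 8 points from 2 libraries, over 5988 genes compared. Leaving out the clusters of 1 library, the r of the same genes lay between 0.90 and 0.98, except that of Hlf and Fance, at 0.75. Among the members r was 0.98 for Dbp and Tef, 0.81 for Dbp and Hlf, and -0.83 for Dbp and Nfil3, values that hold the step between the libraries. With all clusters, the same pairs had r of 0.78, 0.98 and 0.93 over the 4 classes of ZT0 alone. Over those of ZT12 they had 0.96, 0.97 and -0.16. The 0.93 of Dbp and Nfil3 depended on the clusters of 1 library. Without these, basal-like cells of ZT0 had the highest Dbp level of the 4 classes (5.54 CPM) and the lowest Nfil3 level (2.60 CPM, 15 UMIs). Since the Nfil3 levels could not be told apart there, how the 2 genes run across the ZT0 classes is not settled.

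The genes of the clock's own activators stood lower at ZT12. Of 3, 2 reached the level minimum: Arntl went from 22.9 to 1.62 CPM, 14.1-fold higher at ZT0 (11.6 to 17.4), and Clock from 97.0 to 59.9 CPM, 1.62-fold, short of the size rule. In basal-like cells, 3 of 3 passed in that direction, against 1.2% of genes, with Npas2 at 14.5 and 3.13 CPM. Clock fell short there without the clusters of 1 library (1.65-fold, 1.46 to 1.86), and Arntl and Npas2 were 12.9-fold and 5.05-fold higher at ZT0. Over all cells 2.67% of genes passed in the direction of ZT0.

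Most of the other listed genes driven through E-boxes stood higher at ZT12, as Dbp, Tef and Hlf did. The list was chosen with earlier results of these data known. Of 10, all reached the minimum and 9 passed in the direction of ZT12, against 0.346% of all genes measured. Their median log2 ratio was 2.27, against -0.04 over all genes measured. The exception was Bhlhe40, a repressor that other signals also induce, at 56.3 and 79.2 CPM (1.41-fold). Per3, whose promoter D-boxes are printed above, went from 12.7 to 112 CPM (8.81-fold) and Per1 from 6.31 to 23.9 CPM (3.79-fold). The searched promoter windows held CACGTG for Per1, Ciart and Bhlhe41 and CACGTT for Cry2 and Nr1d1, but neither for Per3, Nr1d2 or Usp2. Sites outside the windows were not searched. The deubiquitinase gene Usp2 stood at 27.7 and 80.8 CPM over all cells (2.91-fold), but at 44.3 and 34.3 CPM in cycling-like cells. The plot of ratios sets the members beside these lists.

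**Figure D5:**
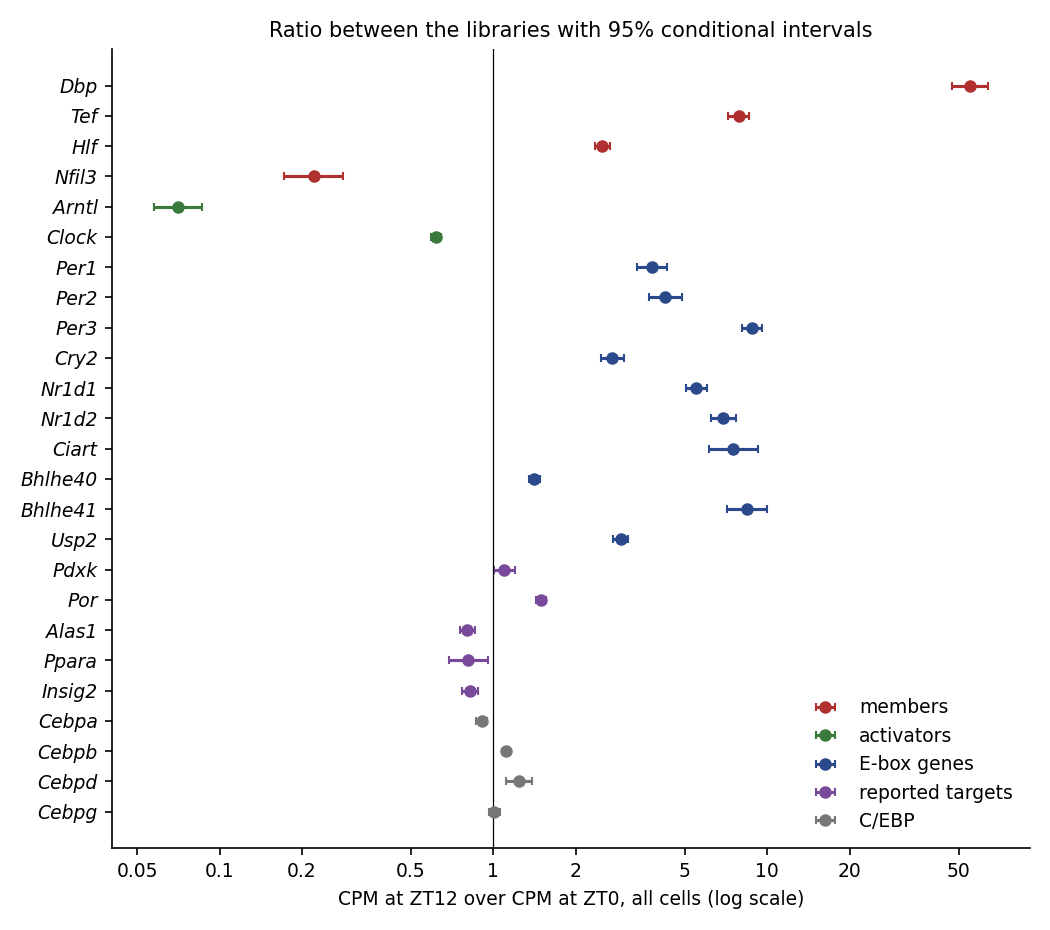
Ratio of the level at ZT12 to that at ZT0 over all cells (log axis) for the 4 members and for the listed genes measured at 5 CPM or more on average, with exact conditional 95% intervals. The line marks a ratio of 1. Dbp lies farthest to the right at 54.8, the E-box genes lie above 1, and the reported targets and C/EBP genes lie between 0.802 and 1.49.

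Genes that the PAR bZip factors or Nfil3 are reported to regulate in liver, kidney or other tissues were mostly sparse here. None that reached the level minimum passed the rule over all cells. Of 12 such genes, 5 reached the minimum and 0 passed in either direction, with a median log2 ratio of -0.28. Over all genes measured, 0.346% passed in the direction of ZT12 and 2.67% in that of ZT0. At such shares, 0 of 5 does not set these genes apart from others. Cytochrome P450 oxidoreductase, Por, went from 60.0 to 89.4 CPM (1.49-fold, 1.42 to 1.56), and the heme synthesis gene Alas1 stood at 37.9 and 30.4 CPM. The liver genes Cyp2a4, Cyp3a11 and Cyp7a1 had no UMI in either library. Without the minimum, as for Nfil3, Cyp2a5 passed in the direction of ZT12, at 1.99 and 4.49 CPM (2.26-fold, 1.79 to 2.86). So did 251 of 20593 genes. In differentiated-like cells, where it reached the minimum, Cyp2a5 was 1.72-fold higher at ZT12 (1.36 to 2.21), short of the rule. Fgf21 passed without the minimum in the direction of ZT0, at 0.162 and 0.0298 CPM, as did 6.26% of genes. In basal-like cells 1 of 6 passed, in the direction of ZT0, against 1.2% of genes: the lipid regulator Ppara, at 8.63 and 4.05 CPM. It fell just short of 2-fold without the clusters of 1 library, at 6.23 and 3.12 CPM. Of 5 C/EBP genes, bZip factors that bind a related site, 4 reached the minimum over all cells and 0 passed, again near the all-cells shares above. Cebpb stood at 208 and 232 CPM (1.12-fold) and Cebpa at 65.8 and 59.7 CPM. Whether these genes differed at times between ZT0 and ZT12 cannot be read from 2 times.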

How the data were processed

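The authors deposited raw UMI counts per gene and barcode for 2 libraries, as filtered 10x matrices. Cell Ranger 2.1.1 and mm10 are named per the submitters' processing notes, while per the file headers Cell Ranger 4.0.0 wrote the counts. This discrepancy was not settled, with the annotation release not given in the sources used here. Barcodes with under 500 genes or 10% or more mitochondrial UMIs were removed (129 at ZT0, 191 at ZT12), and Scrublet calls as well (3 and 7, or 0.188% and 0.266%). At rates this low, doublets must be taken as still present. Counts were not corrected for free RNA.

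Cells of both libraries were clustered together with scanpy 1.11.5 and leidenalg 0.10.2 (2000 variable genes, 30 principal components, 15 neighbours, resolution 1.0), leaving out the members, the related lists, and genes of the clock, of stress (immediate early, heat shock), of mitochondria and ribosomes, and sex-linked ones. Clusters were named from marker lists, by a scoring rule set after the clusters were seen. Some clusters fell between classes or stayed unnamed.

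UMIs were summed per library and class and given as CPM of that sum, with exact Poisson intervals, shares with Clopper-Pearson intervals and ratios with exact conditional binomial intervals, all at 95%. Called genes had a ratio of at least 2, an interval excluding 1 and a mean of at least 5 CPM. The rule was run on all-cells counts for 9541 genes, simulated with Poisson counting error only. There 67 of 67 genes changed 3-fold and 55 of 55 changed 8-fold were called, and 0 of 78 changed 1.5-fold and 0 of 9341 unchanged genes were. Since no spread between animals or libraries was simulated, these counts give no rate of false calls for the 2 real libraries. Likeness was Pearson's r of log2(CPM + 1) among genes averaging 20 CPM or more, naming the top 3. Listed genes could be named with values when their mean was at least 5 CPM, and others named were chosen after their values were seen. Gene positions came from GENCODE M21. Alternatives covered the filter, doublets, scaling (edgeR 4.0.16 TMM), averaging, class makeup, clustering, thinning and level minimum. The members and lists were chosen with earlier results of these data known.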

Additional observations from a re-analysis of the deposited data

Results flagged for a closer look

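The barcodes left out, 132 at ZT0 and 198 at ZT12 with medians of 1264 and 1468 UMIs, also held UMIs of the members above the limit that a count of 0 allows. These sets include the 3 and 7 doublet calls, which were not summed apart from the barcodes that failed the filters. At ZT0 they gave Tef at 9.20 CPM (5 UMIs) and Hlf at 27.6 CPM (15 UMIs), against 11.5 and 28.1 CPM in the kept cells. At ZT12 they gave Dbp at 189 CPM (150 UMIs), Tef at 158 CPM (125 UMIs, 131 to 188) and Hlf at 85.7 CPM (68 UMIs). Tef thus stood higher in these barcodes than in the kept ZT12 cells, which had 90.7 CPM, while Dbp stood at 194 CPM there.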

How the results depend on the processing

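No ratio of ZT12 over ZT0 changed direction under an alternative. Ratios between classes of 1 library were computed again without clusters of 1 library, also chosen after seeing the data. Of these, 21 moved by less than counting error, 12 by more, and 5 whose interval had excluded 1 turned. The 5 were basal-like over cycling-like for Hlf (0.684 at ZT0, 0.581 at ZT12) and, for Nfil3 at ZT0, basal-like over differentiated-like (0.708), filiform-like (0.713) and cycling-like (0.565). Counted among the 21 and 12 are ratios of Nfil3 at ZT12 that also crossed 1, from intervals that held 1. They were basal-like over differentiated-like (1.21 to 0.498) and over filiform-like (1.08 to 0.444). Of the all-cells log2 ratios of ZT12 over ZT0, 25 moved by less than counting error and 3 by more: with class makeup weighted alike Tef was 2.84 and Hlf 1.13, and without clusters of 1 library, an alternative added after seeing the data, Hlf was 1.49. Within classes 82 moved less and 8 more. Without clusters of 1 library, Tef was 2.12 and Hlf 1.5 in basal-like and Hlf 1.98 in differentiated-like cells. As a mean over cells Nfil3 was -1.70 in basal-like cells. Hlf was 1.27 (differentiated-like) and 1.20 (cycling-like) at resolution 2.0, 1.27 in cycling-like cells with the stricter filter, and 1.47 in differentiated-like cells with the Dlk1-led and Krt42-led clusters added, also chosen after seeing the data. The Dbp ratio of filiform-like cells has no alternative value, since its ZT0 count is 0. Shares follow depth by construction: thinned to 5000 UMIs the ZT0 shares of Dbp, Tef, Hlf and Nfil3 were 1.77%, 7.16%, 13.5% and 3.48% and the ZT12 shares 57.1%, 35.7%, 28.5% and 0.511%, and unthinned 8.66%, 25.7%, 33.5% and 14.2%, and 88.2%, 81.8%, 60.3% and 2.79%. Counts of genes higher at ZT12, with no minimum and with 50 CPM, were 251 and 9 (all cells), 242 and 15 (basal-like), 165 and 4 (differentiated-like), 128 and 3 (filiform-like), and 442 and 34 (cycling-like). Counts lower were 1289 and 24, 430 and 12, 444 and 15, 273 and 8, and, at 50 CPM in cycling-like cells, 119. At 20 CPM, 0 activators were lower and 5 E-box genes higher, since fewer genes were counted. No paired analysis was possible because there was 1 library per time. Depth limits Nfil3 most, with 85 UMIs at ZT12.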

Other observations

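The few immune cells gave values of another kind. In a lymphocyte-like cluster of 11 ZT0 and 6 ZT12 cells, marked by Nkg7 and Cd3g, Hlf stood at 186 and 228 CPM (21 and 11 UMIs), Nfil3 at 35.4 and 82.9 CPM (4 UMIs in each library) and Dbp at 53.1 and 166 CPM (6 and 8 UMIs), and Tef had no UMI. The ZT0 cells of this cluster also carried the basal keratin Krt14 at 5444 CPM. In a Langerhans-like cluster of 10 and 3 cells, marked by Cd207 and Cd74, Nfil3 had 8 UMIs at ZT0 (41.8 CPM) and 0 at ZT12. The counts are too few to compare the times.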
